A study of Mus musculus with 2 samples.

Results

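Pleiotrophin (Ptn) and midkine (Mdk) form a small family of secreted growth factors that bind heparin. The 8 genes described here are both ligands and 6 genes for their cell surface partners, namely nucleolin (Ncl), the endocytic receptor Lrp1 and the syndecans Sdc1, Sdc2, Sdc3 and Sdc4. They were taken by symbol from the 28692 genes of the count files, and all 8 were found. They were selected on these same libraries, because Ptn was lower in venous cells of the mutant library and Mdk was high in venous-like cells with Prox1, so those values are given as a description and support nothing.

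The data were 2 libraries of single-cell RNA counts from mesentery at postnatal day (P) 8, 1 per genotype (control and Flcn iΔEC), and each pooled the cells of 3 mice. Cells were isolated with magnetic beads against CD31, a surface protein of endothelial cells that some blood cells also carry. Flcn iΔEC mice carried Flcn flox/flox alleles and Cdh5-BAC-CreERT2, a transgene that drives inducible Cre from the promoter of Cdh5 in blood and lymphatic endothelial cells. According to the labels, both groups received 40 μg of 4-hydroxytamoxifen (4OHT) under the skin on 4 occasions, first at P2, then at P3.5 and P5, and last at P6.5, and mice were on a C57BL/6 background. The alleles of the control mice are not given in the sources used here. With 1 library per genotype, no test was possible, and every interval in brackets is a 95% interval for counting error only.

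Ptn and Mdk are best known from the developing embryo and nervous system and from tissue repair, where they act on neighboring cells. Both bind the heparan sulfate chains that syndecans carry, and both also reach receptors without such chains. Syndecans are transmembrane proteoglycans that present growth factors to their receptors, Lrp1 takes up bound ligands from the surface, and nucleolin, a protein of the nucleolus, binds both ligands when it is at the surface. Folliculin, the product of Flcn, keeps the transcription factor TFE3 out of the nucleus, and Prox1 is the transcription factor that sets lymphatic endothelial identity.

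The control library held 6814 cells and 64639756 unique molecular identifiers (UMIs, which count RNA molecules), and the Flcn iΔEC library 4459 cells and 60805779 UMIs. Median depth was 7283 and 8587 UMIs per cell. Sex-linked genes set the libraries apart. Xist had 9 and 63462 counts and 4 Y-linked genes together had 15535 and 17, so sex and genotype cannot be told apart. Scrublet called 142 and 37 cells doublets, which were kept, and 6 barcodes occurred in both libraries. Flcn itself gave 7.39 CPM (the count of a gene scaled to 1000000 UMIs of its class) for control venous cells and 12.4 CPM for the mutant ones, from 11 and 40 counts, and reads from 3′ ends cannot check whether a floxed stretch further inside was removed.

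Cells were clustered without the 8 genes, and clusters were named from marker lists. The 1673 cells of endothelial clusters were clustered again. Venous (VEC-like) cells numbered 75 and 123 (control first, here and wherever a pair of values is given), with 3 of 8 VEC markers raised 2-fold or more over the remaining endothelium. LEC-like cells (lymphatic, 7 of 8 markers) numbered 47 and 157, Lyve1-high LEC-like cells 15 and 25, and sinus LEC-like cells (lymph node sinus, 5 of 8) 27 and 63. Arterial (AEC-like) cells, with 8 of 8 markers, numbered 55 and 111, cells of high endothelial venules (HEV-like, 5 of 8) 59 and 73, and proliferating EC-like cells 60 and 61. A cluster of 22 and 125 cells is called by its genes Slc41a1 and Cldn11, since it held 4 of 8 LEC markers but also 6 of 8 of another list. A cluster of 104 and 42 cells is called by Cxcl12 and Esm1, since it held 7 of 8 capillary and 6 of 8 AEC markers. The unnamed endothelial clusters held 194 and 191 cells.

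The Prox1+ VEC-like cluster held 44 cells, all of the Flcn iΔEC library. It carried 6 of 8 markers of a list that the study drew from these samples, so its name is not independent evidence. Prox1 stood at 514 CPM there (477 to 553), against 50.4 and 153 CPM in the VEC-like cells of the control and Flcn iΔEC libraries. The venous receptor gene Aplnr stood at 5.72 CPM, against 613 and 227 CPM in VEC-like cells, and the venous transcription factor gene Nr2f2 at 330 CPM, against 500 and 319 CPM. The lymphatic surface genes Lyve1 and Pdpn were at 4.29 and 0.715 CPM. One of the 44 cells held 15948 hemoglobin UMIs and the others at most 6. Without that cell no value of the 8 genes left its counting interval.

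Promoter windows from RefSeq, 250 bases before and 50 after the start on GRCm38.p6, were used for 6 of the 8 genes. No window was available for Mdk and Sdc2, so these were not searched. Stretches are shown for Ptn, the ligand gene with a window, and for Sdc4, the only one of the 6 with a match to a nuclear receptor half-site. Capitals mark that match, AGGTCA, searched on both strands. Neither stretch holds an exon of GENCODE M21. The Ptn stretch lies before the gene, and the Sdc4 stretch lies before the RefSeq start but in an intron of a longer annotated Sdc4 transcript, which begins at 164443887.
Ptn, minus strand, chr6:36810221-36810429: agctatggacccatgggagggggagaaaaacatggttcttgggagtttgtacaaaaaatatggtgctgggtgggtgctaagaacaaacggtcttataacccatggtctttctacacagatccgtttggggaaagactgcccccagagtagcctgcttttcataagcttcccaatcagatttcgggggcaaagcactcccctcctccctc
Sdc4, minus strand, chr2:164443189-164443438: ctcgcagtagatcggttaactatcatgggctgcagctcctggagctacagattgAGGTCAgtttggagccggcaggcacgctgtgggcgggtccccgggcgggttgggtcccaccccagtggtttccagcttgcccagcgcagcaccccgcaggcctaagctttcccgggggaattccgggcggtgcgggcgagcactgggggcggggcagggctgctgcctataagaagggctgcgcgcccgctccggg
Of 32851 promoters of this length, 16.3% held AGGTCA on either strand. The E-box CACGTG was in 0 of the 6 windows and in 7.15% of all, and its looser form CANNTG, which includes it, was in 1 of the 6 (Sdc1) and in 72.3% of all. A match is a description of these letters only.

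Ptn (ENSMUSG00000029838) lies on chromosome 6 of GRCm38 from 36714929 to 36810220. The 75 control VEC-like cells held 705 counts, or 474 CPM (439 to 510), and the 123 Flcn iΔEC ones held 104 counts, or 32.2 CPM (26.3 to 39.1). The control level was 14.7 times the other (11.9 to 18.2), a log2 ratio of -3.86. Of the 8174 genes with at least 50 summed counts in this class, 9 had a lower log2 ratio. This was the contrast that chose Ptn, so it is a description. The difference was spread over cells, since the median control cell held 5 Ptn UMIs and the 5 highest cells held 28.5% of the counts, whereas the median Flcn iΔEC cell held 0. Above 200 CPM in the single cell stood 45 of 75 control cells and 2 of 123 Flcn iΔEC cells.

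**Figure D1:**
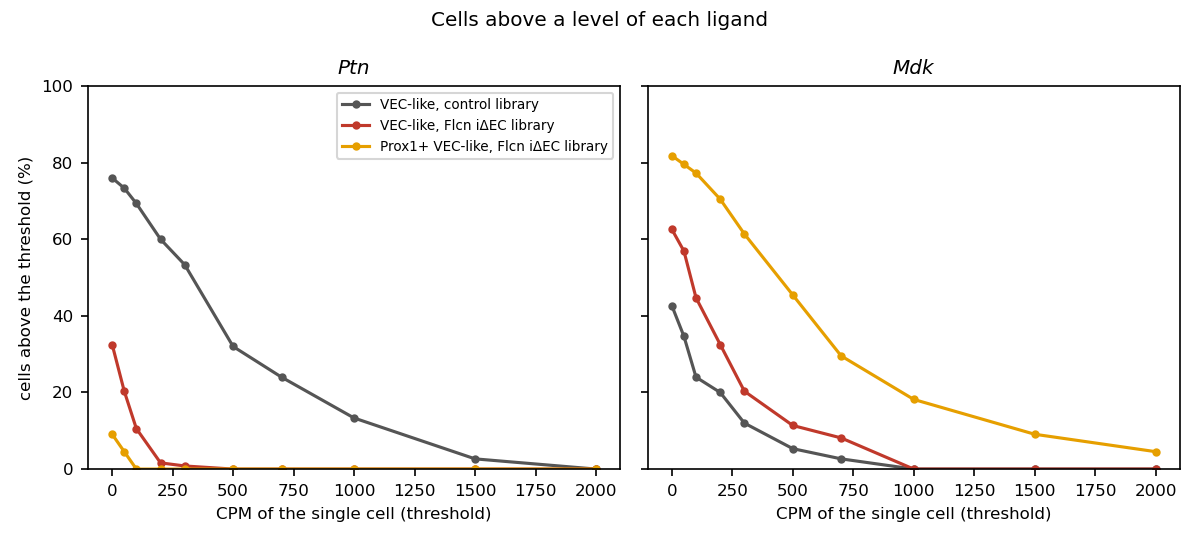
Percentage of cells above a threshold of CPM in the single cell (x axis) for Ptn (left) and Mdk (right), in control VEC-like cells (grey, 75 cells), Flcn iΔEC VEC-like cells (red, 123) and Prox1+ VEC-like cells (orange, 44). For Ptn 60.0% of control VEC-like cells and 1.63% of Flcn iΔEC VEC-like cells exceeded 200 CPM, and for Mdk the Prox1+ VEC-like curve lies above both others.

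Of the control VEC-like cells, 57 of 75 had a Ptn UMI (76.0%, 64.7 to 85.1, exact Clopper-Pearson interval), as did 40 of 123 Flcn iΔEC cells (32.5%, 24.4 to 41.6). Median depth was 15242 and 19865 UMIs. If each cell were thinned to 2000 UMIs, which leaves out 1 control cell, the expected shares were 45.3% and 5.24%. T-like cells, which should lack Ptn, gave 0.0903% and 0% at the same depth, with 36 and 16 cells left out. Their median depth was 7471.5 and 7748 UMIs. Without thinning T-like cells gave 0.348% and 0%. The 44 Prox1+ VEC-like cells gave 1.06% at 2000 UMIs and 9.09% without thinning (2.53 to 21.7).

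The lower Ptn level of the Flcn iΔEC library was seen in most other classes that held the transcript. Sinus LEC-like cells had 326 and 40.7 CPM, 8.01-fold lower (6.00 to 10.8), but 5 of the 27 control cells held 94.8% of those counts and 1 of them 40.7%. Its log2 ratio was -2.98, and -5.08 when clustering was redone without called doublets. Only 1 control cell of the class was a called doublet. In that clustering sinus LEC-like cells held 58 and 7 Ptn counts, in place of 231 and 60. HEV-like cells then held 290 and 100, in place of 113 and 47. The Ptn values of both classes thus depended on how cells were clustered. Proliferating EC-like cells had 262 and 66.4 CPM, 3.94-fold lower (3.33 to 4.69). HEV-like cells had 36.0 and 11.9 CPM, 3.02-fold lower (2.13 to 4.34), and the 5 highest cells of each library held 75.2% and 78.7% of these counts. The Cxcl12+ Esm1+ cluster had 53 and 2 counts, or 43.6 and 3.05 CPM, and 5 of its control cells held 86.8% of the control counts. AEC-like cells had 17 and 15 counts, too few for the count minimum of 50. LEC-like cells were under 2-fold apart in CPM, with 22.5 CPM (13.7 to 34.7) and 19.3 CPM (15.4 to 24.0), whose intervals overlap. The 5 highest LEC-like cells of each library held 70% and 58.5% of these counts. A Ptn UMI was found in 11 of 47 and 19 of 157 LEC-like cells (23.4% and 12.1%), at median depths of 14415 and 24245 UMIs. The Slc41a1+ Cldn11+ cluster had 2 counts in 22 control cells and 0 in 125 Flcn iΔEC cells, where 3 counts would be 0.942 CPM.

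The venous marker Aplnr, beside these values, stood at 405 and 103 CPM in proliferating EC-like cells, and Prox1 at 89.1 and 356 CPM, and the part of these markers in the Ptn ratio was not tested. Over all 658 control and 1015 Flcn iΔEC endothelial cells, whatever their class, Ptn stood at 151 CPM and 22.2 CPM, 6.77-fold lower (6.18 to 7.43). Cells with 10 or more Ptn UMIs numbered 72 and 15.

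Cells without Cdh5 showed the same direction. The fibroblast and mural cluster, 25 control and 28 Flcn iΔEC cells with 8 of 8 fibroblast and 8 of 8 mural markers, had 0 CPM of Cdh5 in both libraries. Ptn stood at 1266 CPM (1157 to 1382) and 438 CPM (379 to 503), 2.89-fold lower (2.45 to 3.42). In this cluster the 5 highest cells held 76.3% and 83% of these counts, and the median cell held 4 and 1 UMIs. Its 14 and 13 cells with a UMI of Myh11, a smooth muscle gene, had 533 and 134 CPM. Its 5 and 9 cells with a UMI of Pdgfra, a fibroblast gene, and none of Myh11 had 1964 and 863 CPM. The 6 and 6 cells with neither had 2256 and 366 CPM, and held 208 of the 497 control counts. Beside them, the pericyte gene Rgs5 stood at 252 and 39.4 CPM, the smooth muscle gene Acta2 at 5738 and 4079 CPM, and the fibroblast genes Col1a1 and Dcn at 7712 and 9440 CPM and at 6010 and 8974 CPM. The part of these markers in the ratios of this cluster was not tested. A cluster with the pancreatic islet hormone genes Ins2 and Sst had 415 CPM in 32 control cells and 155 CPM in 6 Flcn iΔEC cells. Endothelial cells held 72.7% of all Ptn counts of the control and 70.7% of the Flcn iΔEC library, and VEC-like cells 24.5% and 12.1%. Endothelial cells were 658 of 6814 and 1015 of 4459 cells.

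**Figure D2:**
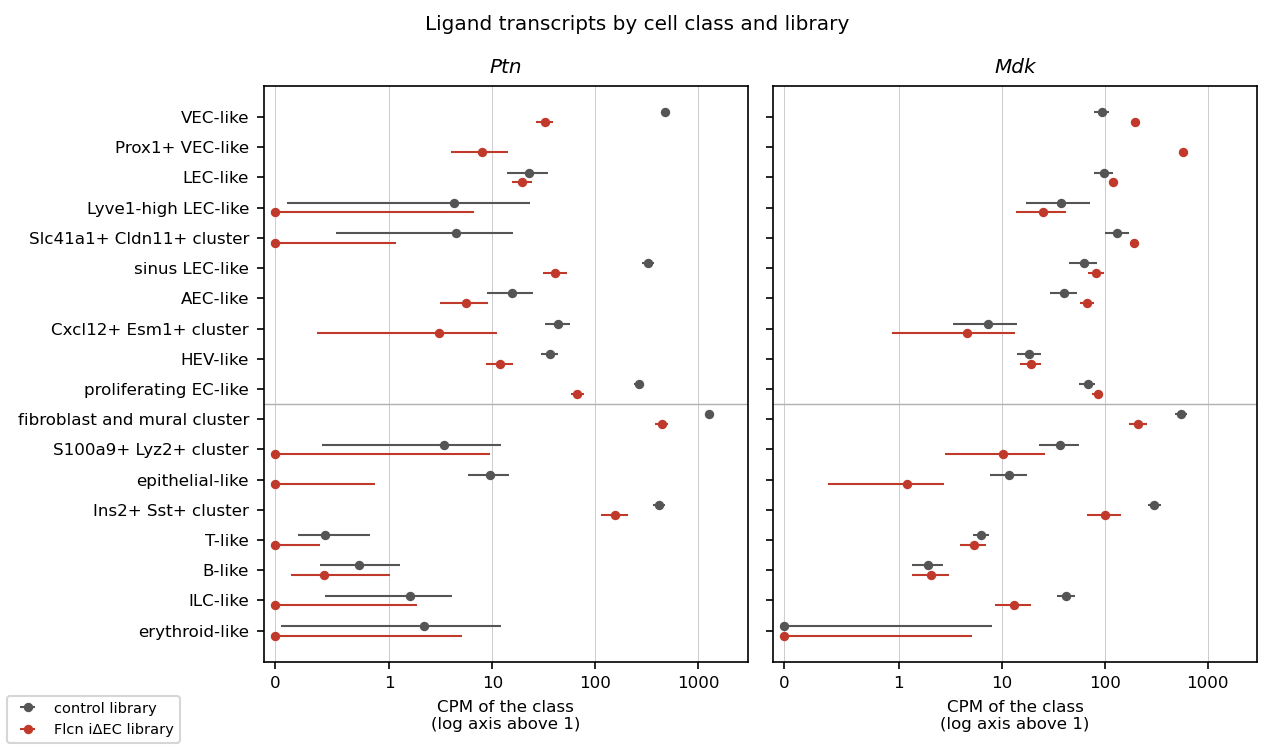
CPM of Ptn (left) and Mdk (right) in each cell class (rows, endothelial classes above the line) in the control library (grey) and the Flcn iΔEC library (red), on an axis that is logarithmic above 1, with bars for exact Poisson 95% intervals. Ptn stood at 474 and 32.2 CPM in VEC-like cells, and Mdk at 569 CPM in Prox1+ VEC-like cells, which the control library lacked.

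Mdk (ENSMUSG00000027239) lies on chromosome 2 from 91929805 to 91932297. Control VEC-like cells held 139 counts, or 93.4 CPM (78.5 to 110), and Flcn iΔEC ones held 632 counts, or 196 CPM (181 to 212). The ratio was 2.10 (1.74 to 2.54), a log2 ratio of 1.06. Without integration of the libraries it was 0.66, under 2-fold. Of the 8174 genes, 231 had a higher log2 ratio. In the cells, 32 of 75 (42.7%, 31.3 to 54.6) and 77 of 123 (62.6%, 53.4 to 71.2) held an Mdk UMI, and expected shares at 2000 UMIs were 14.2% and 24.4%, against 1.24% and 1.04% in T-like cells, which without thinning gave 4.87% and 4.16%.

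In the 44 Prox1+ VEC-like cells Mdk stood at 569 CPM (530 to 610, 796 counts), 2.91 times the Flcn iΔEC VEC-like level (2.61 to 3.23) and 4.75 times the LEC-like level of the same library (4.25 to 5.32). It was 2.99 times the level in the Slc41a1+ Cldn11+ cluster (2.69 to 3.33). A UMI was found in 36 of 44 cells (81.8%, 67.3 to 91.8, and 52.8% at 2000 UMIs), the median cell held 14 UMIs and the highest 63. This level also chose the gene. Ptn in the same cells stood at 7.87 CPM (3.93 to 14.1, 11 counts in 4 cells), 4.10-fold under the VEC-like level of that library. Of 755 genes at least 2-fold apart among 8008, or 9.43%, Mdk and Sdc4 were on the higher and Ptn on the lower side. These were 3 of the 6 genes of the set that reached 50 summed counts, whose median log2 ratio was 0.46, against 0.00 over all genes.

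No other endothelial class was 2-fold apart in Mdk, as far as counts allowed. AEC-like cells had 40.5 CPM (29.6 to 54.2) and 67.2 CPM (57.8 to 77.6), a ratio of 1.66 (1.19 to 2.35), and the Slc41a1+ Cldn11+ cluster had 132 and 191 CPM, a ratio of 1.44 (1.11 to 1.91). In the LEC-like cells it stood at 97.8 and 120 CPM, in sinus LEC-like cells at 62.1 and 82.8 CPM, and in HEV-like cells at 18.46 and 18.98 CPM. The ratios of these 3 classes had intervals that include 1. Proliferating EC-like cells had 68.0 and 84.9 CPM, a ratio of 1.25 (1.002 to 1.56). The Lyve1-high LEC-like cells, with 9 and 14 counts, and the Cxcl12+ Esm1+ cluster, with 9 and 3, were under the count minimum. The mean over cells in place of the sum gave a log2 ratio of 1.36 in the Slc41a1+ Cldn11+ cluster and 1.16 in sinus LEC-like cells, and in the former 1 control cell held 51.7% of the counts.

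In the fibroblast and mural cluster Mdk stood at 548 CPM (477 to 626) and 210 CPM (170 to 257), 2.61-fold lower in the Flcn iΔEC library (2.04 to 3.35), opposite to VEC-like cells. Innate lymphoid (ILC-like) cells had 42.1 and 13.0 CPM of Mdk, from 106 and 26 counts. The median ILC-like cell held 0 Mdk UMIs in both libraries, and the 5 highest cells held 47.2% and 69.2% of these counts. Over all endothelial cells Mdk stood at 53.6 and 126 CPM, a ratio of 2.35 (2.17 to 2.55), and cells with 10 or more UMIs numbered 17 and 134. Endothelial cells held 47.4% of the Mdk counts of the control library and 92.7% of those of the Flcn iΔEC library. The Prox1+ VEC-like cells alone held 21.5% of the latter. Endothelial cells were 658 of 6814 control and 1015 of 4459 Flcn iΔEC cells. The Ins2+ Sst+ cluster held 172 Mdk counts in 32 control cells and 29 in 6 Flcn iΔEC cells. The part of such differences in the cells captured in these shares was not tested.

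Among VEC-like cells, both ligands were seen together in 29 of 75 control cells, Ptn alone in 28 and Mdk alone in 3. In the Flcn iΔEC library the numbers were 30, 10 and 47 of 123. Of the Prox1+ VEC-like cells, 4 held both, 0 held Ptn alone and 32 held Mdk alone. The control class thus had mostly cells with Ptn, and the Flcn iΔEC classes mostly cells with Mdk, at depths that differed as given above.

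Venous cells were also split by their Prox1 UMIs, a division chosen after the data were seen. Control VEC-like cells with 0 Prox1 UMIs and with 1 to 6 had 355 and 539 CPM of Ptn and 89.1 and 95.7 CPM of Mdk. Flcn iΔEC VEC-like cells with 0, 1 to 6 and 7 to 39 Prox1 UMIs had 17.2, 40.4 and 31.6 CPM of Ptn. All 3 Flcn iΔEC groups, the 52 cells without a Prox1 UMI included, lay under both control groups. Ptn in VEC-like cells chose the set, so this is a description, and a cell with 0 Prox1 UMIs may still express Prox1. Mdk in the same 3 groups stood at 219 CPM (188 to 254), 133 CPM (116 to 153) and 288 CPM (253 to 326), with no steady order. The Prox1+ VEC-like cells with 0 to 6 and 7 to 56 Prox1 UMIs had 469 and 597 CPM of Mdk. Median depth was 13056 and 22166.5 UMIs in the control groups. It ran from 14804.5 to 40875 UMIs over the 3 Flcn iΔEC VEC-like groups, and deeper cells hold more Prox1 UMIs.

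**Figure D3:**
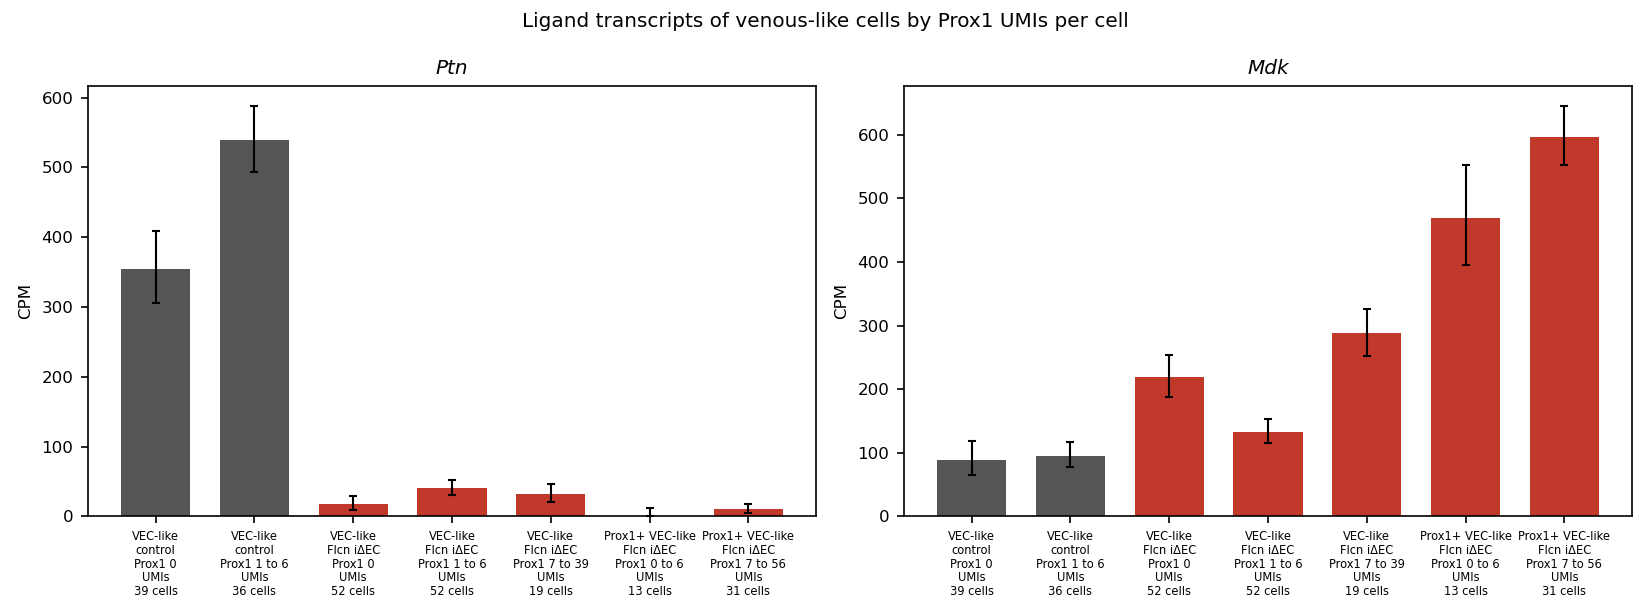
CPM of Ptn (left) and Mdk (right) in groups of VEC-like and Prox1+ VEC-like cells by Prox1 UMIs per cell, in the control library (grey) and the Flcn iΔEC library (red), with bars for exact Poisson 95% intervals. Ptn stood at 355 and 539 CPM in both control groups and at 40.4 CPM or less in all Flcn iΔEC groups, while Mdk was highest at 597 CPM.

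Ncl (ENSMUSG00000026234), on chromosome 1 from 86344719 to 86359400, encodes nucleolin and was under 2-fold apart in each class compared. VEC-like cells had 449 CPM (415 to 484) and 462 CPM (439 to 486), against 504 CPM in the Prox1+ VEC-like cells. Endothelial classes ranged from 424 to 717 CPM. Among endothelial classes its ratios between the libraries ran from 0.81 in LEC-like cells (0.74 to 0.89) to 1.16 in proliferating EC-like cells (1.08 to 1.25). The highest levels were in B-like cells, with 1142 and 1010 CPM, and the lowest in erythroid-like cells, with 45.6 and 27.7 CPM.

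Lrp1 (ENSMUSG00000040249), on chromosome 10 from 127538161 to 127621148, was at 0 counts in the VEC-like cells of both libraries, in the Prox1+ VEC-like cells and in the LEC-like cells of both. With 3 counts as the limit, up to 2.02 and 0.930 CPM in VEC-like and 2.15 CPM in Prox1+ VEC-like cells could have gone unseen. All endothelial cells together held 14 counts in each library. It stood at 211 CPM (168 to 262) and 228 CPM (186 to 276) in the fibroblast and mural cluster, where 80.0% and 89.3% of cells held a UMI. In a cluster of myeloid genes (S100a9+ Lyz2+, 108 and 55 cells) it stood at 42.1 CPM (27.2 to 62.1) and 110 CPM (79.6 to 148), and in epithelial-like cells at 17.0 and 22.3 CPM. In the myeloid cluster 1 Flcn iΔEC cell held 34.9% of the Lrp1 counts of that library and 5 cells held 81.4%. Median depth there was 1993.5 and 2068 UMIs. The fibroblast and mural cluster held 44.9% and 38.1% of all Lrp1 counts, and endothelial cells 7.57% and 5.13%.

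Sdc1 (ENSMUSG00000020592), on chromosome 12 from 8771323 to 8793715, encodes syndecan-1 and was highest in AEC-like cells. Its levels there were 293 CPM (262 to 326) and 183 CPM (168 to 200), a ratio of 0.63 (0.54 to 0.72). VEC-like cells had 96.1 CPM (81.0 to 113) and 40.3 CPM (33.7 to 47.8), 2.38-fold lower (1.87 to 3.05). LEC-like cells had 61.8 and 36.3 CPM, a ratio of 0.59 (0.43 to 0.81). HEV-like cells went the other way, with 6.05 and 12.2 CPM from 19 and 48 counts. Prox1+ VEC-like cells had 50.1 CPM (39.0 to 63.3), whose interval overlaps that of the VEC-like cells of the same library.

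Sdc2 (ENSMUSG00000022261), on chromosome 15 from 32920723 to 33034935, stood highest in the fibroblast and mural cluster, with 278 CPM (228 to 335) and 261 CPM (216 to 312). No endothelial class reached 50 summed counts, and levels there lay between 1.08 and 14.6 CPM. In LEC-like cells it stood at 14.6 CPM (13 counts) and 5.65 CPM (24 counts).

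Sdc3 (ENSMUSG00000025743), on chromosome 4 from 130792537 to 130826319, was low and present in every endothelial class, from 8.47 to 60.9 CPM. VEC-like cells had 20.8 CPM (14.1 to 29.6) and 27.6 CPM (22.2 to 34.0), and Prox1+ VEC-like cells 41.5 CPM (31.5 to 53.6), 1.504 times the VEC-like level of that library (1.06 to 2.12). Lyve1-high LEC-like cells had 3 and 34 counts, under the count minimum, a ratio of 4.85 (1.53 to 24.7). Endothelial cells, which were 658 of 6814 and 1015 of 4459 cells, held 84.5% and 91.9% of all Sdc3 counts.

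Sdc4 (ENSMUSG00000017009), on chromosome 2 from 164424247 to 164443887, encodes syndecan-4, a component of focal adhesions. It was high in ILC-like cells, with 654 and 667 CPM, and among endothelial classes in HEV-like cells, with 259 CPM (241 to 277) and 203 CPM (189 to 218). In VEC-like cells 9 and 55 counts gave 6.05 CPM (2.76 to 11.5) and 17.0 CPM (12.8 to 22.2), a ratio of 2.82 (1.38 to 6.49). Prox1+ VEC-like cells had 65.1 CPM (52.4 to 79.9), 3.82 times the VEC-like level of their library (2.70 to 5.44). LEC-like cells had 16.9 CPM (9.44 to 27.8) and 41.7 CPM (35.8 to 48.3), a ratio of 2.47 (1.46 to 4.51). Without integration both were under 2-fold, with log2 ratios of 0.40 in VEC-like and 0.53 in LEC-like cells. Sinus LEC-like cells had 233 and 128 CPM, and the Slc41a1+ Cldn11+ cluster 85.8 and 84.1 CPM. Over all endothelial cells the ratio was 0.74 (0.69 to 0.79). HEV-like cells, where Sdc4 was high, made up 8.97% and 7.19% of endothelial cells.

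**Figure D4:**
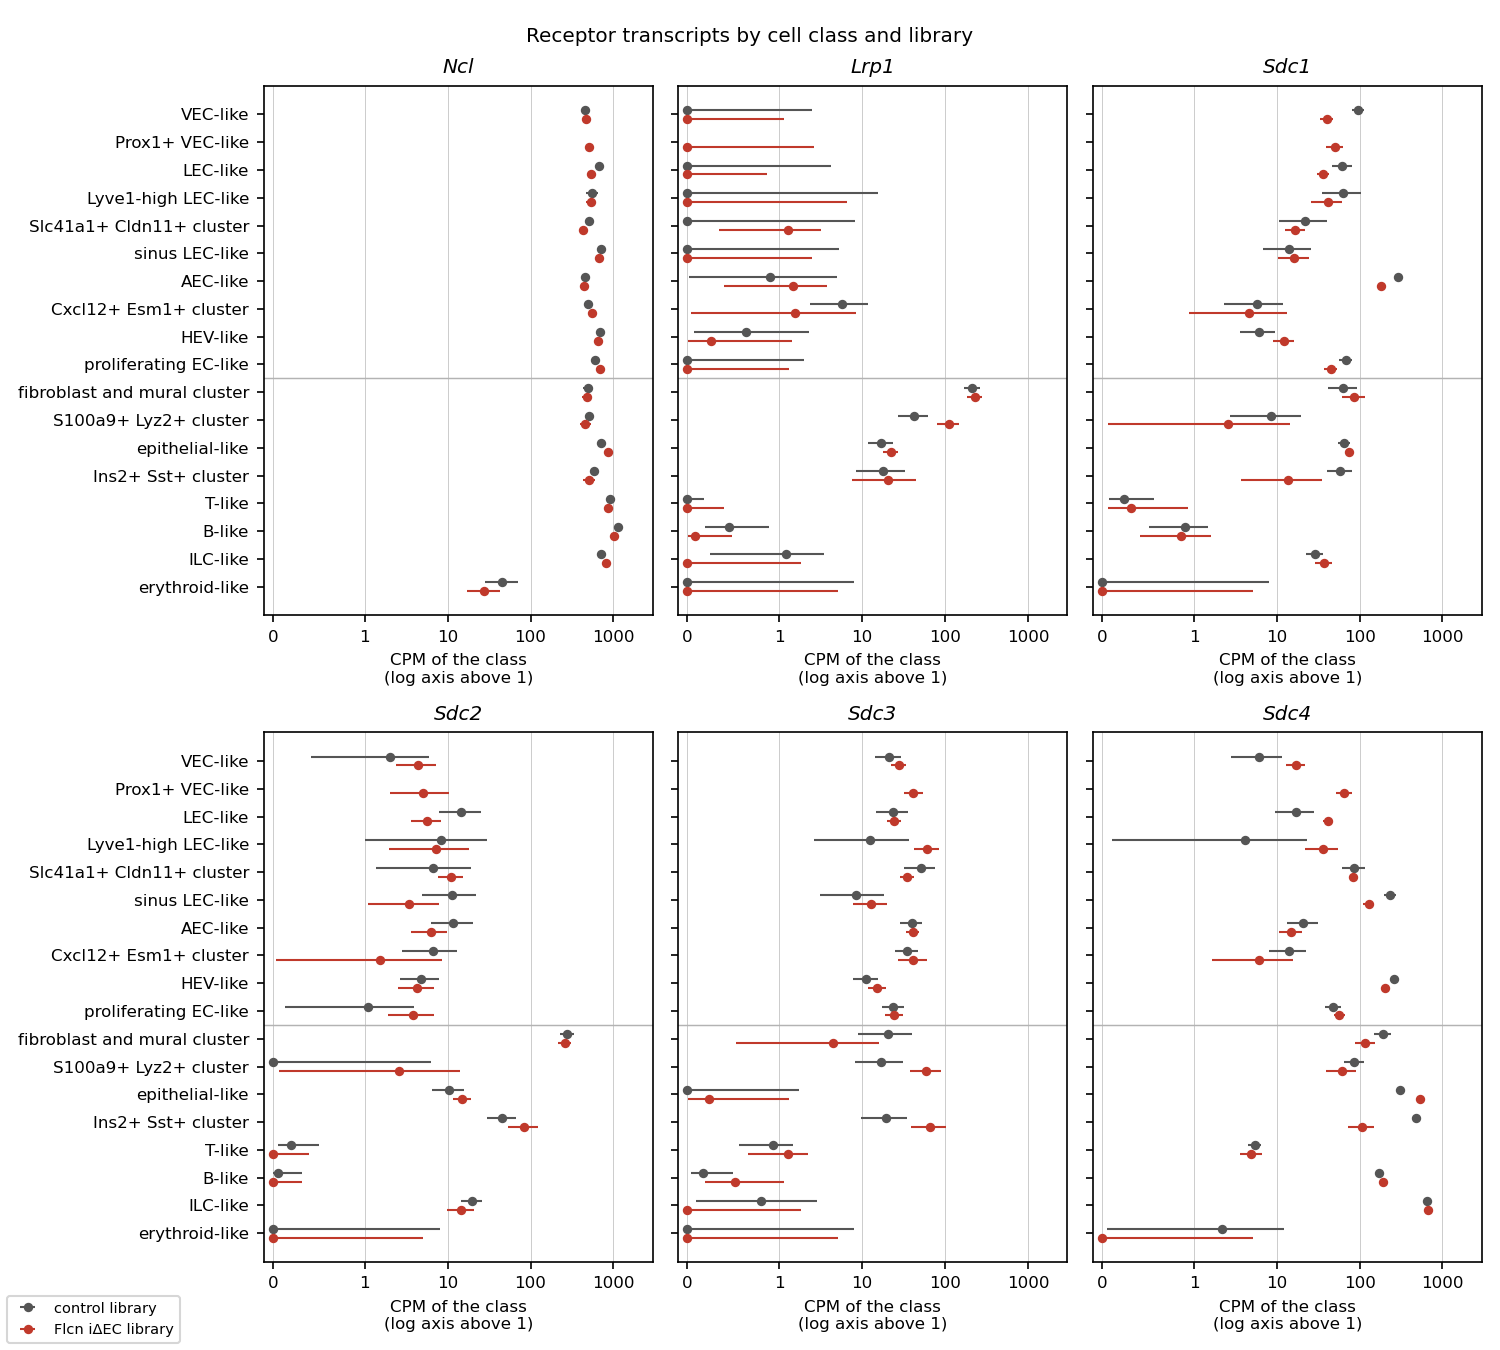
CPM of the 6 receptor genes in each cell class (rows) in the control library (grey) and the Flcn iΔEC library (red), on axes that are logarithmic above 1, with bars for exact Poisson 95% intervals. Ncl was found in every class, Lrp1 and Sdc2 stood highest in the fibroblast and mural cluster with 211 to 278 CPM, Sdc1 was highest in AEC-like cells and Sdc4 in ILC-like cells.

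Between the libraries, 6 of the 8 genes reached 50 summed counts in VEC-like cells. Mdk and Sdc4 were at least 2-fold higher in the Flcn iΔEC library and Ptn and Sdc1 at least 2-fold lower, which is 4 of 6, where 7.93% of 8174 genes were as far apart. The set was chosen on this contrast, so nothing follows from the share. The median log2 ratio was 0.21 for the 6 and -0.09 for all genes. In LEC-like cells 1 of 6, Sdc4, was that far apart, where 11% of all genes were, and the medians were -0.14 and -0.20.

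In AEC-like cells 0 of 5 were 2-fold apart (5.06% of all genes), in the Slc41a1+ Cldn11+ cluster 0 of 5 (13.2%) and in Lyve1-high LEC-like cells 0 of 1 (8.81%). Ptn alone was 2-fold apart in sinus LEC-like cells (1 of 4, 7.68%), the Cxcl12+ Esm1+ cluster (1 of 3, 5.75%), HEV-like cells (1 of 6, 4.44%) and proliferating EC-like cells (1 of 6, 9.58%). Sdc1 in HEV-like cells was at the border, with a ratio of 2.01 (1.16 to 3.62) and a log2 ratio of 0.96 once 1 count was added to each side, the scale on which 2-fold was set. In the fibroblast and mural cluster Ptn and Mdk were (2 of 7, 4.54%). Within the Flcn iΔEC library, Prox1+ VEC-like against LEC-like cells had Mdk higher and Ptn lower (2 of 6, 9.99%), and against the Slc41a1+ Cldn11+ cluster Mdk and Sdc1 were higher (2 of 5, 8.91%).

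**Figure D5:**
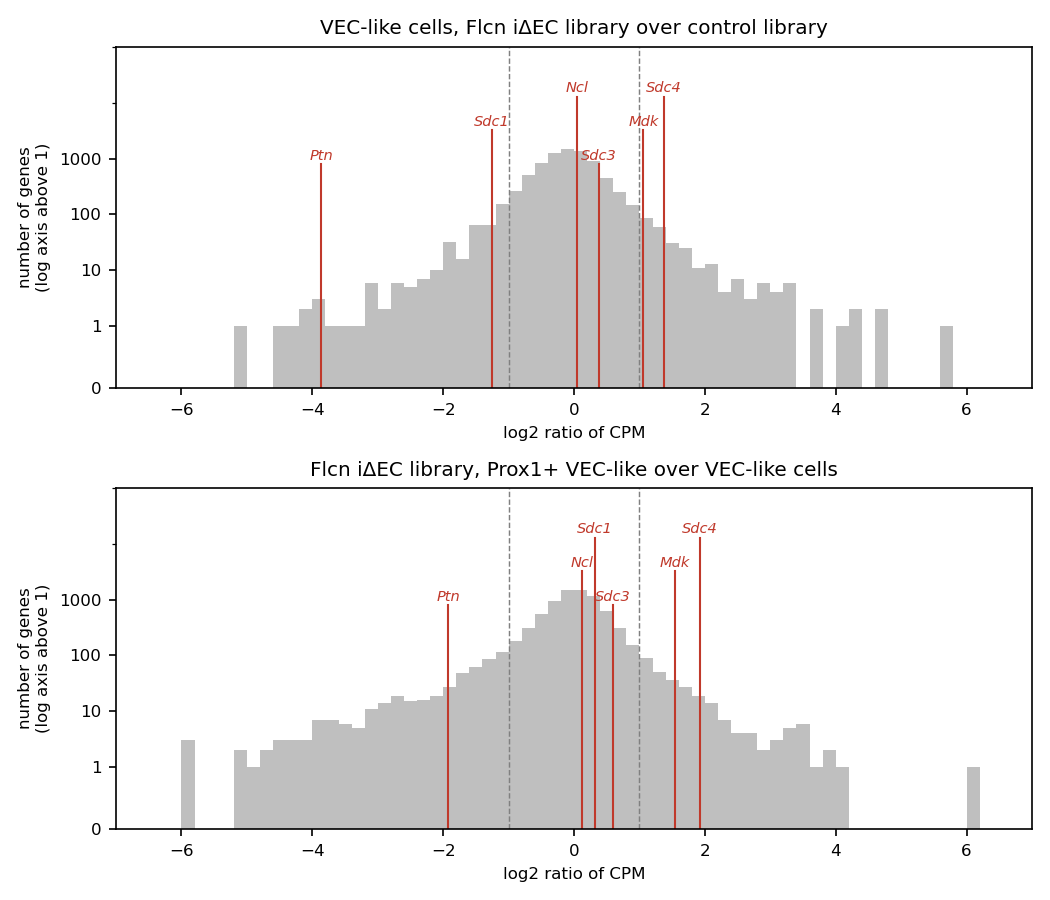
Number of genes (logarithmic above 1) by log2 ratio of CPM for all genes with at least 50 summed counts (grey bars), with red lines for the 6 genes of the set that reached it, in VEC-like cells between the libraries (top) and in the Flcn iΔEC library between Prox1+ VEC-like and VEC-like cells (bottom). Dashed lines mark 2-fold. Ptn lies at -3.86 in the top and -1.92 in the bottom panel, and Mdk at 1.06 and 1.54.

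Other genes of the pathway were taken from 5 lists. Of 15 other receptors for these ligands, 5 reached the count minimum in VEC-like cells and 0 were 2-fold apart between the libraries, where 7.93% of all genes were, from Itgb1 at a log2 ratio of -0.60 to Itgav at 0.71. The integrin gene Itgb1 stood at 1446 and 956 CPM, and Npm1, for nucleophosmin, at 703 and 969 CPM. In AEC-like cells Itga6 was lower, with 73.0 and 31.4 CPM (1 of 4 counted, 5.06% of all genes). Itgav was higher in Prox1+ VEC-like than in VEC-like cells, with 35.0 and 16.1 CPM (1 of 5 counted, 9.43% of all genes). Itgb3 in LEC-like cells had 3 and 49 counts, or 3.37 and 11.5 CPM, a ratio of 3.42 (1.10 to 17.2). It was counted as 2-fold higher (1 of 7 counted, 11% of all genes).

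Of 10 other heparan sulfate proteoglycan cores, 5 were counted in VEC-like cells, and Srgn, for the granule proteoglycan serglycin, was 2-fold lower (1 of 5, 7.93% of all genes), at 397 and 142 CPM. In LEC-like cells Hspg2, for the basement membrane proteoglycan perlecan, stood at 136 and 46.6 CPM (1 of 5, 11% of all genes). In the Prox1+ VEC-like cells Col18a1 reached 777 CPM, where the VEC-like cells of that library had 206 CPM, whereas Hspg2, Tgfbr3 and Srgn were 2-fold lower there. Of 5 counted cores 1 was thus higher and 3 were lower, where 9.43% of all genes were 2-fold apart. The lists were chosen with earlier results known, so nothing follows from the share.

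Of 20 genes of heparan sulfate synthesis and editing, 14 were counted in VEC-like cells and 1 of them, the 3-O-sulfotransferase gene Hs3st1, was 2-fold apart, with 261 and 120 CPM, a share near the 7.93% of all genes. LEC-like cells had 228 and 48.0 CPM of Hs3st1, and 16.9 and 45.4 CPM of Sulf1, which removes 6-O-sulfates. Xylt1, which starts the chains, had 2 and 160 counts in LEC-like cells, or 2.25 and 37.7 CPM. There 2 of 14 counted genes were higher and 1 was lower, where 11% of all genes were 2-fold apart. The chain polymerase gene Ext1 stood at 152 CPM in Prox1+ VEC-like and 50.5 CPM in VEC-like cells of that library, and Sulf1 at 25.03 and 160 CPM. In that contrast 1 of 13 counted genes was higher and 1 lower, where 9.43% of all genes were 2-fold apart. Of 10 syndecan partners and sheddases, 7 were counted in VEC-like cells and 0 were 2-fold apart (7.93% of all genes), from Adam10 at a log2 ratio of -0.52 to Sdcbp at 0.41. The protease gene Mmp2 stood at 123 CPM in Prox1+ VEC-like and 314 CPM in VEC-like cells (1 of 7, 9.43% of all genes). Of 9 Lrp1 partners, 6 were counted and 1, the related lipoprotein receptor gene Vldlr, was 2-fold higher (7.93% of all genes 2-fold apart either way), with 7.39 and 20.8 CPM from 11 and 67 counts. The adaptor gene Dab2 stood at 17.2, 36.9 and 169 CPM in the Prox1+ VEC-like, the VEC-like and the LEC-like cells of the mutant library. In Prox1+ VEC-like cells 1 of 6 Lrp1 partners was higher and 2 were lower than in VEC-like cells (9.43% of all genes). Against LEC-like cells 3 of 6 were lower (9.99%).

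Genes with the most similar pattern were found by Pearson's r of log2(CPM + 10) over 33 units, each a class of at least 20 cells in 1 library, among 12563 other genes with at least 200 UMIs. The units share 2 libraries, and several come from related cells, so r is a description. For Ptn the 5 highest were Sox12, Slc22a17, Unc5c, Rbms3 and Cbr3, with r from 0.80 to 0.83. For Mdk they were Shisa4, Adamts5, Cpe, Samd14 and Podxl2 (0.86 to 0.89). Ncl was nearest to Rpl22, Rpl9, Eef1g, Rpl3 and Rpl29 (0.98 each), all genes of ribosomes or translation. Lrp1 was nearest to Cacnb3, Slpi, Pla2g4a, Axl and Il18 (0.88 to 0.95), and Sdc2 to Vasn, Col16a1, Fstl3, Ndrg2 and Matn2 (0.91 to 0.93). Sdc1 was nearest to Zfyve21, Kank1, Vkorc1, Mcfd2 and Golim4 (0.82 to 0.84), Sdc3 to Ubtd1, Gata2, Slc31a2, Parp12 and Plod1 (0.86 to 0.91), and Sdc4 to Pafah1b3, Ppfibp2 and Adck3, among others (0.78 to 0.82). Between Ptn and Mdk r was 0.60.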

How the data were processed

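Single-cell RNA was measured in 2 libraries of CD31+ mesenteric cells. The authors used 10x Chromium 3′ chemistry and deposited raw UMI counts per gene and cell from Cell Ranger 3.0 on mm10, as the submitters' processing notes name them. All cells were kept. Cells were clustered in Seurat 5.3.0 (R 4.3.3) with anchor integration, 30 dimensions and a resolution of 0.8. Of 2000 variable features, those among the 72 genes of the set and lists were left out. That left 1981 features for all cells and 1982 for endothelial cells. Scrublet ran in scanpy 1.11.5. Endothelial clusters had 6 of 8 pan-endothelial markers in at least 20% of cells. Clusters were named by hand from at least 3 markers raised 2-fold, after they had been seen. Counts were summed per class in Python 3.11.15 with scipy 1.17.1 and given exact Poisson intervals. Ratios have exact conditional intervals, and log2 ratios have 1 count added before scaling. A gene was counted as 2-fold apart with at least 50 summed counts. A count of 0 was given the limit of 3 counts. Named genes were the 8 genes, the 5 nearest patterns of each, the 2-fold and extreme genes of each list, markers, Flcn and sex-linked genes. One gene that this rule names is not reported here. The genes and lists were chosen with earlier results of these data known. The summing and ratios were tested on simulated data. The closing section gives the alternatives.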

Additional observations from a re-analysis of the deposited data

Results flagged for a closer look

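Mdk differed in direction between cell classes. Its log2 ratio of the Flcn iΔEC over the control library was 1.06 in VEC-like cells, from 139 and 632 counts, and -1.37 in the fibroblast and mural cluster, from 215 and 96 counts. The difference between the classes was not tested, since there was 1 library per genotype.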

How the results depend on the processing

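No paired analysis was possible because each genotype had 1 library and no replicate numbers. For 78 results, 664 values under alternatives gave 614 near the main value (for levels, ratios and shares, within its counting interval), 50 further away and 0 of opposite sign among those called. Without integration the log2 ratio in VEC-like cells was -3.51 for Ptn and 0.66 for Mdk. With the Prox1+ VEC-like cells counted as VEC-like, an alternative chosen after seeing the data, these were -4.24 and 1.72. The mean over cells gave 1.70 for Mdk in Prox1+ VEC-like over VEC-like cells. A minimum of 20 counts gave 1065 of 10099, 1481 of 10032 and 760 of 9520 genes 2-fold apart in VEC-like, LEC-like and AEC-like cells (10.5%, 14.8% and 7.98%), in place of 648, 886 and 370. Of the genes of the set it gave 4 of 6, 2 of 7 and 1 of 7, in place of 4 of 6, 1 of 6 and 0 of 5. The Slc41a1+ Cldn11+ cluster was not recovered without integration or at a resolution of 0.4, so no value was had there. Leaving out the cell rich in hemoglobin or the shared barcodes, both also chosen after seeing the data, moved 0 of 66 values. For low genes, counts in few cells limit precision, and no interval covers the spread between mice.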
